A study of Danio rerio with 7 samples.

Results

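Aminoacyl-tRNA synthetases join each amino acid to its transfer RNA, the step that supplies the ribosome with charged tRNA. Animal cells use 2 sets of these enzymes, both encoded in the nucleus: cytosolic enzymes, several of them held in a multi-synthetase complex, and mitochondrial enzymes, whose gene names end in 2 and which charge tRNAs for the proteins made inside mitochondria. In mammals many of the cytosolic genes are targets of ATF4, the transcription factor of the amino acid and integrated stress response. The genes described here are those whose symbol is a synthetase name, with or without a closing 1 (*tars* or *tars1*), from a list of 33 names, 20 of them cytosolic and 13 mitochondrial. Of these, 25 were found among the 33737 genes counted, 16 cytosolic and 9 mitochondrial. *aars2*, *ears2*, *farsa*, *hars*, *kars*, *nars2*, *sars2* and *wars* were not analysed here, because no gene counted was paired with these symbols.

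Expression was measured by RNA sequencing in zebrafish embryos at 96 hours post-fertilization (hpf), to ask what loss of *taf5* changes in the heart. The study states that RNA came from isolated hearts, whereas the sample titles name embryos only. The *cora* group was homozygous for *cora* stl325, a nonsense allele of the TFIID subunit gene *taf5*, and had 4 libraries. The control group was unaffected clutchmates, labelled wild type, which can include heterozygous carriers, and had 3 libraries, numbered 1, 3 and unnumbered. Embryos of both groups carried *Tg(cmlc2::gfp)*, green fluorescent protein driven in heart muscle cells. None was treated, and the study describes each library as a pool of 100 hearts. The labels do not say whether pools of a group came from separate clutches, so the p-values measure the spread between pools only.

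The libraries held 21474488 to 32037220 reads assigned to genes. *taf5* was at 8.83, 5.10 and 5.27 normalized CPM in control replicates 1, 3 and unnumbered and at 1.97, 3.10, 3.70 and 4.56 in *cora* replicates 1 to 4. Every *cora* library was lower, but the difference did not pass (adjusted p = 0.232). Normalized CPM is the read count scaled to a common library total with edgeR's TMM factors. Control replicate 1 stood apart from the other control libraries, with 33.7% of its reads on the mitochondrial chromosome against 16.8% to 21.8% in the other 6 libraries. It also differed in tissue markers. Liver markers took 0.745% of its counts, against 2.76% and 3.06% in control replicates 3 and unnumbered. Epidermis markers took 3.13%, against 1.09% and 1.25%. The 7 cardiomyocyte markers that could be matched were read in every library and took 0.0189% to 0.292% of the counts. That was less than the 8 epidermis markers, at 1.09% to 3.22%. The lists are unlike, with 7 of 13 cardiomyocyte names unmatched against 2 of 10 epidermis names. In such bulk pools, fewer cells of a type and less RNA per cell cannot be told apart. Of the 21632 genes tested, 1.97% passed an adjusted p under 0.05 (edgeR's quasi-likelihood test, Benjamini-Hochberg adjustment), 1.11% as higher and 0.86% as lower in *cora*.

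The cytosolic synthetase genes were mostly at higher levels in *cora* libraries, and the mitochondrial ones lay on both sides of 0. All 16 cytosolic genes and 8 of the 9 mitochondrial genes passed the filter on low counts. Of the cytosolic genes, 15 of 16 had a log2 fold change above 0 (47.8% of all genes tested did), and the median was 0.57, a 1.49-fold difference, against -0.03 for all genes tested. *tars*, *yars* and *qars* rose at an adjusted p under 0.05, a threshold that 1.11% of all genes tested passed as higher, and 0 cytosolic genes fell. At an unadjusted p under 0.05, 10 of the 16 were higher, or 62.5%, against 9.13% of all genes tested, and 0 were lower. Both classes together had 11 of 24 genes (45.8%) at an unadjusted p under 0.05, against 17.7% of all genes tested in either direction. In 9 of the 16 cytosolic genes, or 56.2%, every *cora* library lay above every control library, against 9.01% of all genes tested. Without any 1 of 5 libraries (control replicates 3 and unnumbered, *cora* replicates 1 to 3), 0 cytosolic genes passed with edgeR, and 6 to 10 were at an unadjusted p under 0.05. With *cora* replicate 4 left out the same 3 genes passed. With control replicate 1 left out, 15 of 16 were again above 0 and 5 passed (*mars*, *qars*, *rars*, *tars* and *yars*), in a fit that called 5.46% of all genes in either direction. The median of the 16 lay between 0.52 and 0.66 when single libraries were left out.

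**Figure D1:**
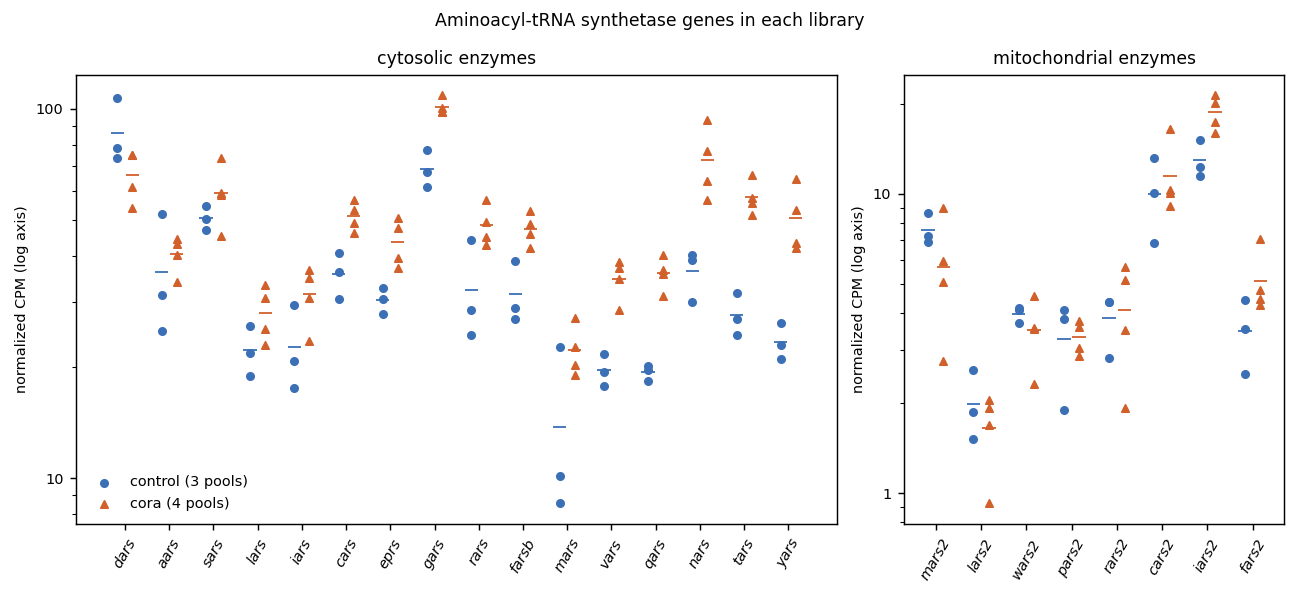
Normalized CPM (y axis, logarithmic, with a different range in each panel) of the 24 tested synthetase genes in each library, cytosolic enzymes on the left and mitochondrial enzymes on the right. Circles are the 3 control pools, triangles the 4 *cora* pools and short lines the group means; the groups separate for *tars*, *yars*, *qars* and 6 other cytosolic genes, and on the right only for *iars2*.

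*tars* encodes the enzyme for threonine (ENSDARG00000013250, Zv9 chromosome 5, 45965273 to 45989759). It was at 24.4, 31.7 and 26.9 normalized CPM in control replicates 1, 3 and unnumbered and at 57.4, 55.5, 66.2 and 51.6 in *cora* replicates 1 to 4. Every *cora* pool lay well above the highest control pool. Mean *tars* was 27.7 ± 3.71 in control (SD, n = 3) and 57.7 ± 6.17 in *cora* (SD, n = 4), a 2.08-fold rise (log2 fold change 1.06 ± 0.20, SE; adjusted p = 0.038, edgeR).

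*yars*, the gene of the enzyme for tyrosine (ENSDARG00000035913, Zv9 chromosome 19, 32130104 to 32140671), had the largest fold change of the tested members. It was at 26.3, 22.9 and 21.1 normalized CPM in the control libraries, in the same order, and at 53.2, 42.0, 64.5 and 43.3 in the *cora* libraries. The control pools lay close together and the *cora* pools spread more widely, with no overlap. Mean *yars* was 23.4 ± 2.65 in control (SD, n = 3) and 50.8 ± 10.4 in *cora* (SD, n = 4), a 2.17-fold rise (log2 fold change 1.12 ± 0.22, SE; adjusted p = 0.0432, edgeR).

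*qars* encodes the enzyme for glutamine (ENSDARG00000010316, Zv9 chromosome 8, 48507066 to 48539923), a member of the multi-synthetase complex. It was at 20.2, 18.4 and 19.6 normalized CPM in control and at 36.7, 35.7, 40.3 and 31.1 in *cora* libraries, so that the control pools hardly differed and all *cora* pools were higher. Mean *qars* was 19.4 ± 0.924 in control (SD, n = 3) and 35.9 ± 3.78 in *cora* (SD, n = 4), a 1.85-fold rise (log2 fold change 0.89 ± 0.19, SE; adjusted p = 0.0493, edgeR). *qars* lay just inside the threshold and missed it under upper quartile scaling, scaling by library size alone, no filter on low counts and limma's voom, under all of which *tars* and *yars* passed. The 5 fits without 1 library in which no synthetase gene passed called 0.154% to 0.974% of all genes.

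*nars*, the gene of the enzyme for asparagine, had a fold change between those of *qars* and *tars* but did not pass. It was at 30.1, 39.1 and 40.3 normalized CPM in control and at 63.7, 77.0, 93.1 and 56.6 in *cora* libraries, again without overlap. The log2 fold change of *nars* was 0.99 ± 0.24 (SE; adjusted p = 0.0705, edgeR), and its *cora* pools differed among themselves more than those of *tars* or *qars*.

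*gars* encodes the enzyme for glycine, which in vertebrates serves both the cytosol and the mitochondria. It was the most abundant member per exon length in *cora* libraries, at 38.6 normalized CPM per kb. *gars* was at 61.5, 77.4 and 67.4 normalized CPM in control and at 98.0, 97.8, 109 and 100.3 in *cora* libraries (log2 fold change 0.56 ± 0.19, SE; adjusted p = 0.159, edgeR). The groups did not overlap and the *cora* pools were close together. *eprs* encodes a protein that charges both glutamate and proline tRNAs in the cytosol. *eprs* was at 32.8, 27.8 and 30.6 normalized CPM in control and at 47.6, 39.4, 37.2 and 50.7 in *cora* libraries, without overlap (log2 fold change 0.52 ± 0.20, SE; adjusted p = 0.204, edgeR). *farsb* encodes a subunit of the cytosolic enzyme for phenylalanine. *farsb* was at 27.0, 28.9 and 38.6 normalized CPM in control and at 45.8, 42.0, 52.8 and 48.7 in *cora* libraries, without overlap (log2 fold change 0.59 ± 0.20, SE; adjusted p = 0.176, edgeR). Exons of *farsb* overlap those of a gene on the other strand, and no source says that reads were assigned by strand. The *farsb* counts may therefore include reads of that gene or lack some of their own.

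**Figure D2:**
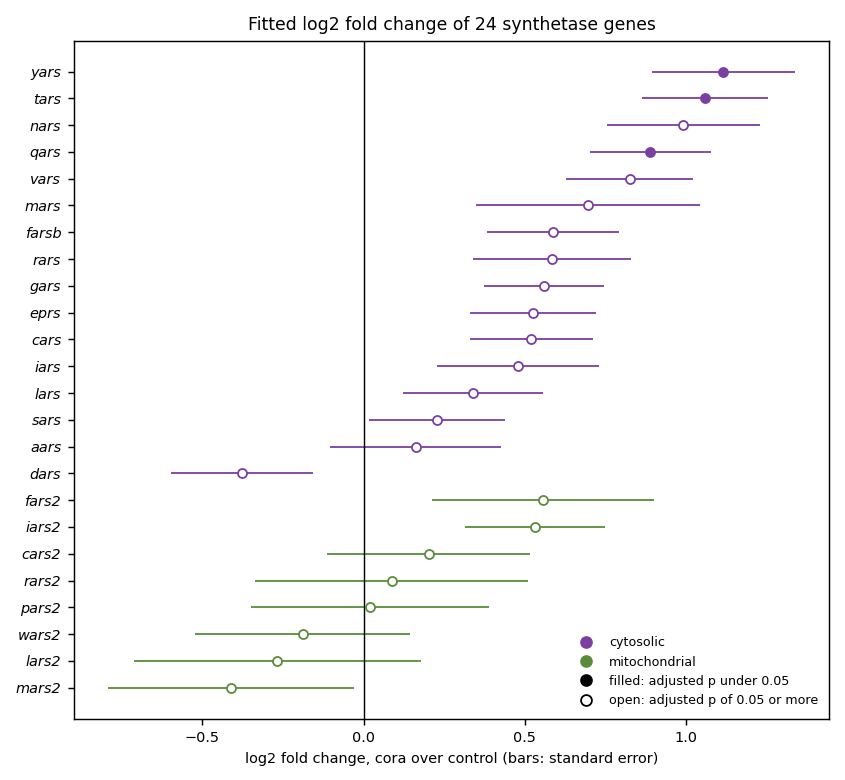
Fitted log2 fold change of *cora* over control (x axis) with its standard error for each tested member, cytosolic genes above and mitochondrial genes below. Filled points passed an adjusted p under 0.05 (*yars* 1.12, *tars* 1.06, *qars* 0.89), and *dars* is the cytosolic gene below 0, at -0.38.

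The lower end of the cytosolic class was *dars*, the gene of the enzyme for aspartate. It was at 107, 73.5 and 78.3 normalized CPM in control and at 75.1, 75.0, 61.5 and 53.9 in *cora* libraries. Only *cora* replicates 3 and 4 lay below all control libraries, and the log2 fold change of *dars*, -0.38 ± 0.22 (SE), did not pass (adjusted p = 0.423, edgeR). *dars* had the highest level per exon length of the tested members in control, 36.8 normalized CPM per kb, against 26.2 for *gars*. In *cora* libraries *dars* was at 28.3 normalized CPM per kb and *gars* at 38.6.

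*aars*, *sars* and *lars*, the genes of the enzymes for alanine, serine and leucine, were the next lowest and overlapped between the groups. *aars* was at 52.1, 31.4 and 25.1 normalized CPM in control and at 43.0, 44.4, 40.3 and 34.0 in *cora* libraries. Control replicate 1 was thus the highest of all 7, and the log2 fold change was 0.16 ± 0.27 (SE), or -0.04 with the unnumbered control library left out and 0.53 with control replicate 1 left out. *sars* was above every control library in 3 of 4 *cora* libraries and below all of them in *cora* replicate 4, at 45.4 normalized CPM (log2 fold change 0.23 ± 0.21, SE). *lars* was above every control library in 2 of 4 *cora* libraries (log2 fold change 0.34 ± 0.22, SE). The other 5 cytosolic genes, *cars*, *iars*, *mars*, *rars* and *vars*, had log2 fold changes between 0.48 and 0.82 and adjusted p between 0.0729 and 0.365, and 2 of them, *cars* and *vars*, did not overlap.

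The 7 tested enzymes of the multi-synthetase complex (*dars*, *eprs*, *iars*, *lars*, *mars*, *qars* and *rars*) had a median log2 fold change of 0.52, with 1 past the adjusted threshold, which 1.11% of all genes tested passed as higher. The 9 other cytosolic enzymes had a median of 0.59, with 2 past it. Every *cora* library lay above every control library for 2 of the 7 (28.6%) and 7 of the 9 (77.8%), against 9.01% of all genes tested. At an unadjusted p under 0.05 with edgeR, 3 of the 7 (42.9%) and 7 of the 9 (77.8%) were higher, against 9.13% of all genes tested. The difference between the complex and the rest was not tested.

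The class was also followed library by library. The mean log2 level of its 16 genes, relative to the mean of the 7 libraries, was -0.20, -0.37 and -0.44 in control replicates 1, 3 and unnumbered. It was 0.28, 0.21, 0.38 and 0.13 in *cora* replicates 1 to 4. *cora* replicate 3 was the highest *cora* library for 10 of the 16 genes and *cora* replicate 4 the lowest for 8. Among control libraries, replicate 1 was the highest for 9 of the 16 genes. Summed over the class, the level was 557 ± 46.0 normalized CPM for the control libraries (SD, n = 3) and 792 ± 64.2 for *cora* (SD, n = 4), 1.42 times as high.

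**Figure D3:**
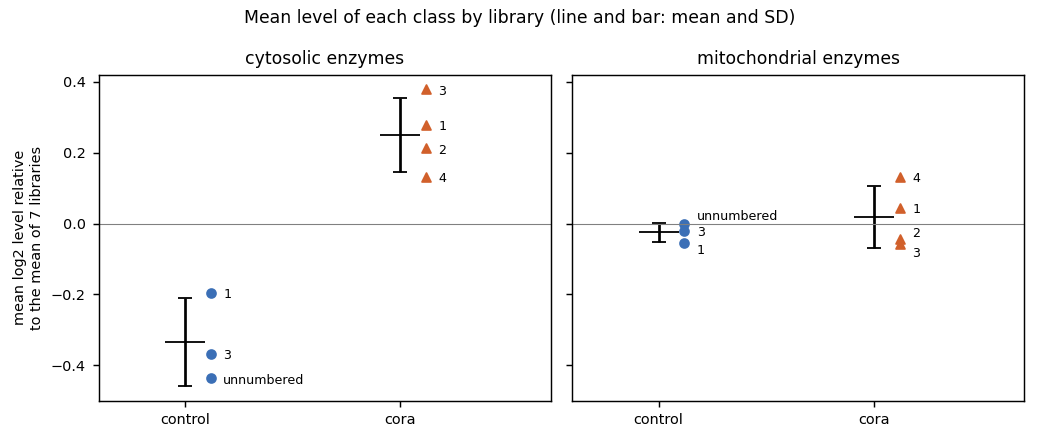
Mean log2 level of the 16 cytosolic (left) and 8 mitochondrial (right) genes in each library, relative to the mean of the 7 libraries (y axis), with the library's replicate number beside each point and the group mean ± SD as a line and bar. Control libraries lie between -0.44 and -0.20 and *cora* libraries between 0.13 and 0.38 on the left, while on the right the groups overlap.

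The mitochondrial synthetase genes were spread about 0. Of the 8 tested, 5 had a log2 fold change above 0 and 3 below, with a median of 0.05 and a range of -0.41 to 0.56. None passed an adjusted p under 0.05 (0 of 8 with edgeR, DESeq2 and limma's voom alike). At an unadjusted p under 0.05 with edgeR, 1 was higher (12.5%, against 9.13% of all genes tested) and 0 were lower. The class mean was -0.06, -0.02 and 0.00 in control replicates 1, 3 and unnumbered and 0.04, -0.04, -0.06 and 0.13 in *cora* replicates 1 to 4, so the groups overlapped on this measure. Their summed level was 47.1 ± 1.91 normalized CPM for the control libraries (SD, n = 3) and 53.6 ± 4.83 for *cora* (SD, n = 4), 1.14 times as high. By this sum, in which the most read genes weigh most, every *cora* library (49.1 to 60.2) lay above every control library (45.0 to 48.7). That separation rests on *iars2*, which had the highest mean level of the class, 13.0 normalized CPM in control and 18.7 in *cora*. With *iars2* taken out of the sum the groups overlapped. These genes were read less often, with 20 to 538 reads per gene and library against 282 to 2617 for the cytosolic genes. Their standard errors were wider, with a median of 0.36 against 0.21.

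*iars2*, the gene of the mitochondrial enzyme for isoleucine, was the 1 of 8 members without overlap between the groups (12.5%, against 9.01% of all genes tested). It was at 12.3, 15.1 and 11.5 normalized CPM in control and at 21.4, 20.1, 16.03 and 17.4 in *cora* libraries (log2 fold change 0.53 ± 0.22, SE; adjusted p = 0.242, edgeR). All *cora* pools were higher, *cora* replicate 3 by a small margin over control replicate 3. Exons of *iars2* overlap those of *rab3gap2* on the other strand, so its reads are uncertain in the same way as those of *farsb*. *fars2*, for phenylalanine, had a log2 fold change of 0.56 ± 0.34 (SE), and was at 2.50, 4.43 and 3.53 normalized CPM in control and at 4.44, 4.79, 4.25 and 7.06 in *cora* libraries. Here *cora* replicate 4 stood above the others and *cora* replicate 3 lay below control replicate 3.

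*cars2*, *rars2* and *pars2*, for cysteine, arginine and proline, had log2 fold changes of 0.20, 0.09 and 0.02, each smaller than its standard error of 0.31, 0.42 and 0.37. The sign of each turned when some libraries were left out, and that of *pars2* also under upper quartile scaling. *cars2* was at 13.2, 10.04 and 6.87 normalized CPM in control and at 10.3, 9.12, 10.1 and 16.6 in *cora* libraries, where control replicate 1 and *cora* replicate 4 were the highest of their groups. *rars2* was at 4.35, 2.82 and 4.35 normalized CPM in control and at 5.69, 3.51, 5.17 and 1.93 in *cora* libraries, with *cora* replicate 4 the lowest of all 7. *pars2* was at 1.89, 3.82 and 4.09 normalized CPM in control and at 3.77, 3.59, 3.05 and 2.87 in *cora* libraries, all of them within the control range.

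*mars2*, *lars2* and *wars2*, for methionine, leucine and tryptophan, had log2 fold changes of -0.41, -0.27 and -0.19 with standard errors of 0.38, 0.45 and 0.33. *mars2* was at 6.89, 7.22 and 8.61 normalized CPM in control and at 2.76, 5.98, 5.08 and 8.95 in *cora* libraries. It was thus lower in 3 of 4 *cora* pools and highest of all libraries in *cora* replicate 4. Exons of *mars2* also overlap a gene on the other strand. *lars2* was the least read of the tested members, at 2.58, 1.52 and 1.87 normalized CPM in control and at 2.05, 1.68, 0.924 and 1.93 in *cora* libraries. *wars2* was at 4.09, 3.70 and 4.16 normalized CPM in control and at 3.56, 2.32, 4.57 and 3.53 in *cora* libraries, so 3 of 4 *cora* pools were below all control pools and *cora* replicate 3 above them. *yars2*, the untested member, had 1 read in all 7 libraries together, in *cora* replicate 3.

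The cytosolic and the mitochondrial medians differed by 0.52 on the log2 scale, and by 0.44 to 0.66 when single libraries were left out. The difference of the class means was -0.14, -0.35 and -0.44 in the control libraries and 0.23, 0.26, 0.44 and 0.00 in *cora* replicates 1 to 4. It was higher in every *cora* library than in any control library, least so in *cora* replicate 4. No test was made of the difference between the classes, because the members were chosen with earlier results of these data known.

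Per exon length, the cytosolic genes were also the more abundant class. They ranged from 4.34 to 36.8 normalized CPM per kb in control, with a median of 9.98, and from 7.02 to 38.6 in *cora*, with a median of 15.8. The mitochondrial genes ranged from 1.04 to 4.34 normalized CPM per kb in control, with a median of 1.84, and from 0.865 to 4.99 in *cora*, with a median of 2.09. *mars*, the lowest cytosolic gene in control, and *cars2*, the highest mitochondrial gene, were level at 4.34.

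Among the tested members, 6 amino acids had a cytosolic and a mitochondrial gene that each serve that amino acid alone. The ratio of the cytosolic to the mitochondrial gene's normalized CPM could be followed within each library. *eprs*, which charges both glutamate and proline tRNAs, was not paired with *pars2*. *vars* was not paired with *vars2*, which is outside the list of 33 names. The ratio was not corrected for length. The ratio's group mean was higher in *cora* for 5 of the 6 pairs, but in 0 of the 6 were the groups free of overlap. The log2 ratio of *mars* to *mars2* differed most. It was 1.71, 0.24 and 0.24 in the control libraries and 2.75, 1.74, 2.14 and 1.60 in the *cora* libraries, a difference in means of 1.33. Control replicate 1 lay among the *cora* libraries there. The *rars* to *rars2* and *lars* to *lars2* ratios each differed by 0.62 and that of *cars* to *cars2* by 0.32. The *farsb* to *fars2* and *iars* to *iars2* ratios differed by 0.04 and -0.04, and both genes of each pair had similar log2 fold changes (0.59 and 0.56, and 0.48 and 0.53).

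**Figure D4:**
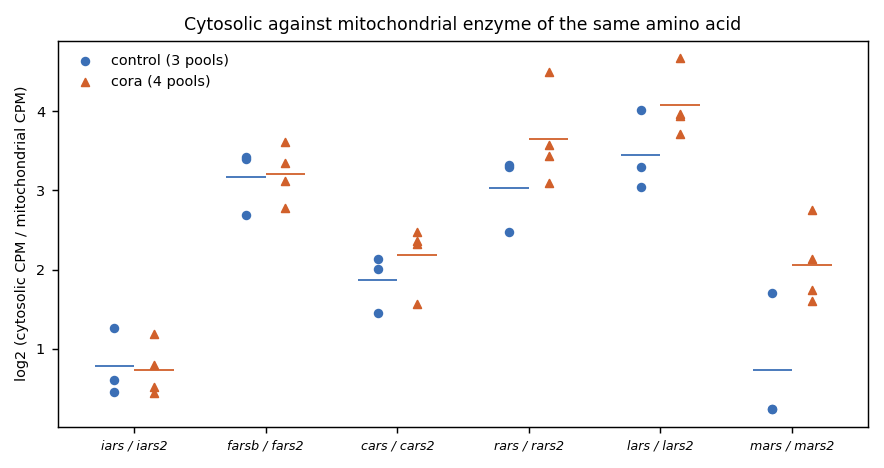
Log2 ratio of the normalized CPM of the cytosolic gene to that of the mitochondrial gene of the same amino acid (y axis) in each library, for 6 amino acids. Circles are control pools, triangles *cora* pools and lines group means; the means differ by 1.33 for *mars* over *mars2* and by -0.04 for *iars* over *iars2*, and the groups overlap in every pair.

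Other genes that make or act on charged tRNA had a median log2 fold change of 0.09 over the 19 tested, with 11 above 0 and a range of -0.78 to 0.50. This list holds the scaffold proteins of the multi-synthetase complex (*aimp1*, *aimp2*, *eef1e1*), the mitochondrial amidotransferase that makes glutaminyl-tRNA (*gatb*, *gatc*, *qrsl1*), further synthetase genes (among them *hars2*, *tars3* and *vars2*), proofreading enzymes and other factors. None passed in either direction with edgeR (0 of 19). At an unadjusted p under 0.05 only *gatc* did, as lower (5.26%, against 8.61% of all genes tested). It was at 11.3, 12.8 and 11.0 normalized CPM in control and at 6.91, 8.67, 7.30 and 4.39 in *cora* libraries. *gatc*, the lowest of the list, was below the controls in every *cora* library (log2 fold change -0.78 ± 0.28, SE; adjusted p = 0.186, edgeR). The highest was *ptrh2*, a peptidyl-tRNA hydrolase, at 0.50 ± 0.59 (log2 fold change, SE). The scaffold genes *aimp2* and *eef1e1* had log2 fold changes of 0.14 and 0.20, each smaller than its standard error of 0.24 and 0.32. *tars3*, a paralog of *tars*, had a log2 fold change of -0.62 ± 0.42 (SE). *aimp2*, *eef1e1* and *tars3* were named after their values were seen.

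Genes of the ATF4 and amino acid response had a median log2 fold change of 0.31 over the 32 tested, with 22 above 0 and 10 below. Of these, 1 rose at an adjusted p under 0.05 and 0 fell, and at an unadjusted p under 0.05 9 were higher (28.1%, against 9.13% of all genes tested) and 2 lower. The gene that rose was *mthfd1l*, an enzyme of folate metabolism in mitochondria. *mthfd1l* was at 4.65, 7.28 and 4.38 normalized CPM in control and at 12.9, 13.9, 19.0 and 18.6 in *cora* libraries, far apart (log2 fold change 1.56 ± 0.29, SE; adjusted p = 0.0381, edgeR). *atf4b*, a zebrafish gene of ATF4 itself, was at 292, 251 and 245 normalized CPM in control and at 367, 311, 449 and 329 in *cora* libraries (log2 fold change 0.47 ± 0.22, SE; adjusted p = 0.309, edgeR). It was higher in every *cora* pool. The other members did not pass and spread widely. *atf3*, a transcription factor of the stress response, had the highest log2 fold change, 2.22 ± 0.59 (SE; adjusted p = 0.0925, edgeR), and *sesn2*, *ddit4*, *trib3* and *ddit3* had 1.61, 1.28, 1.09 and 0.66 with adjusted p of 0.0524, 0.12, 0.0851 and 0.211. *ddit4* and *ddit3* overlapped between the groups, with control replicate 1 at 76.3 and 113 normalized CPM and *cora* replicate 4 at 71.5 and 109. The 2 genes lower at an unadjusted p under 0.05 were *cth* (ENSDARG00000032206) and *pck2*. Their log2 fold changes were -2.16 ± 0.80 and -0.98 ± 0.33 (SE), and both overlapped between the groups. Another gene ID named *cth* was at 0.35. Every *cora* library lay above every control library for 9 of the 32 genes (28.1%, against 9.01% of all genes tested). Every *cora* library lay below for 2 (6.25%, against 8.73%), *slc3a2a* and *nupr1a*. Those 2 had log2 fold changes of -0.37 ± 0.20 and -0.32 ± 0.18 (SE; adjusted p = 0.387 and 0.394, edgeR). *psat1* and *phgdh*, of serine synthesis, had log2 fold changes of 0.14 and 0.06. *asns*, asparagine synthetase, had a log2 fold change of 0.31 ± 0.38 (SE). *atf3*, *sesn2*, *ddit4*, *trib3*, *ddit3*, *atf4b*, *cth*, *pck2*, *slc3a2a*, *nupr1a*, *psat1*, *phgdh* and *asns* were named after their values were seen.

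**Figure D5:**
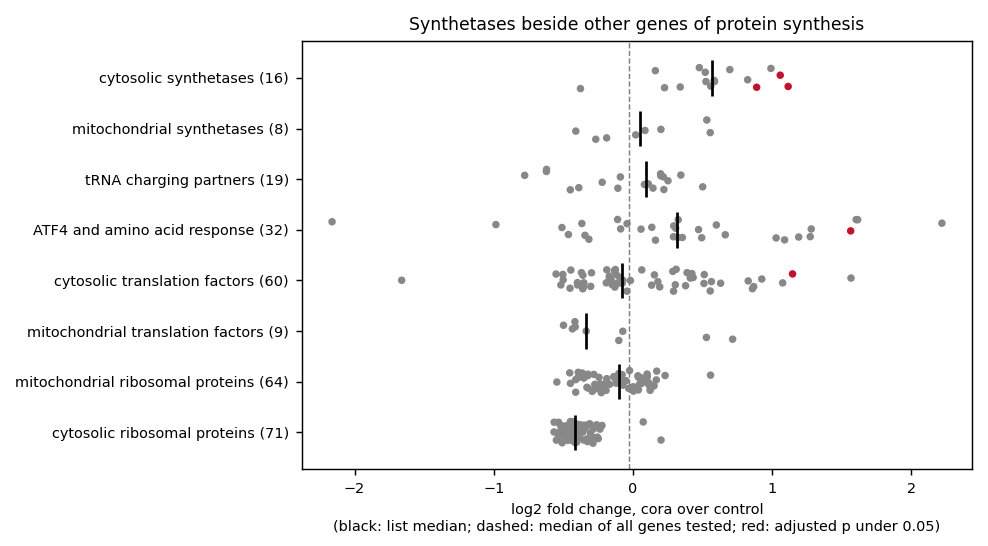
Log2 fold change of *cora* over control (x axis) for each tested gene of the synthetase classes and of 6 other lists, with the number of genes in brackets; black lines are list medians, the dashed line is the median of all genes tested and red points passed an adjusted p under 0.05. The medians are 0.57 for cytosolic synthetases, 0.05 for mitochondrial synthetases and -0.42 for cytosolic ribosomal proteins.

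Of 71 cytosolic ribosomal protein genes tested, 2 were above 0 and the median was -0.42, between *rpl3* at -0.57 and *rpl7l1* at 0.20. None passed (0 with edgeR), 7 were lower at an unadjusted p under 0.05 (9.86%, against 8.61% of all genes tested), and in 37 (52.1%, against 8.73%) every *cora* library lay below every control library. The 60 cytosolic initiation and elongation factor genes had a median of -0.08, with 12 higher (20%, against 9.13% of all genes tested) and 2 lower (3.33%, against 8.61%) at an unadjusted p under 0.05. Of them *eif4a1a*, an RNA helicase of translation initiation, rose (log2 fold change 1.15 ± 0.24, SE; adjusted p = 0.0487, edgeR). It was at 329, 374 and 296 normalized CPM in control and at 645, 685, 939 and 679 in *cora* libraries, with no overlap. A related gene, *eif4a1b*, named after its values were seen, was lower in every *cora* library (log2 fold change -0.52 ± 0.20, SE; adjusted p = 0.227, edgeR). Of the 60 genes, 11 (18.3%, against 9.01% of all genes tested) were higher without overlap and 8 (13.3%, against 8.73%) lower.

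For the mitochondrial compartment, the 64 mitochondrial ribosomal protein genes had a median of -0.10, between *mrps14* at -0.55 and *mrps31* at 0.56. The 9 mitochondrial translation factor genes had a median of -0.34, between *mtrf1*, a release factor, at -0.50 and *gfm1*, an elongation factor, at 0.72. None of either list passed with edgeR (0 of 64 and 0 of 9). At an unadjusted p under 0.05 there were 0 of the 64, against 17.7% of all genes tested in either direction. Of the 9, only *gfm1* was, as higher (11.1%, against 9.13% of all genes tested). *gfm1* was at 9.60, 12.4 and 10.5 normalized CPM in control and at 19.8, 20.1, 13.7 and 17.7 in *cora* libraries (log2 fold change 0.72 ± 0.23, SE; adjusted p = 0.15, edgeR). The differences between these lists and the synthetases were not tested.

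Of the tissue marker lists, only that of the exocrine pancreas took a share of the counts that did not overlap between the groups. The 14 exocrine pancreas markers, from a tissue with very high protein synthesis, took 0.599% to 2.79% of the counts in control and 0.0893% to 0.177% in *cora* libraries. All 14 had reads in every library and a log2 fold change below 0. Of them 13 were lower at an adjusted p under 0.05 with edgeR, against 0.86% of all genes tested. The 13 liver markers took 0.745% to 3.06% of the counts in control and 0.361% to 2.65% in *cora* libraries, with overlap. The 7 skeletal muscle markers took 0.249% to 0.732% and 0.369% to 1.08%, with 0 of 7 passing with edgeR and 0 at an unadjusted p under 0.05. The cardiomyocyte markers ranged from 0.0189% to 0.292% in control and from 0.0268% to 0.158% in *cora*, again with 0 of 7 passing with edgeR and 0 at an unadjusted p under 0.05. Control replicate 1 set the low end of the control range for pancreas, liver and cardiomyocyte markers and the high end for skeletal muscle markers. The part of the tissue mix in the synthetase results was not tested.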

How the data were processed

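Each library had a table of 33737 Ensembl genes with read counts, CPM and RPKM. Per the file headers and values, the deposited counts are whole reads per gene, the deposited CPM are the share of all reads assigned to genes, scaled to a common total, and the deposited RPKM are that CPM divided by exon length in kb; no other normalization was found in them. The submitters' processing notes name STAR 2.0.4b, Subread, featureCounts 1.4.5, edgeR and limma without saying what each did, and strand use in counting is not given in the sources used here. Scaffold names in the tables are those of zebrafish build Zv9. Only the counts were analysed further.

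Genes passing edgeR's filterByExpr were tested by genotype with the quasi-likelihood test after TMM scaling (edgeR 4.0.16, R 4.3.3), with Benjamini-Hochberg adjustment over all 21632 of them and no covariate. The pipeline was tested on simulated data. The biological coefficient of variation was 0.427, the TMM factor of control replicate 1 was 0.839, and those of the other libraries were 0.95 to 1.09. A count of 3 reads, the limit that a count of 0 allows, corresponds to 0.0936 to 0.14 CPM; limits of this kind cover counting error only. Standard errors are the log2 fold change divided by the square root of F. Log2 levels used a prior count of 2. No 2 libraries of the same group agreed within sampling noise.

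A symbol table paired 21939 of the 33737 gene IDs with names; its synthetase names mostly have the human form (TARS1), written here as the zebrafish names. Of 33 members, 7 had an ID that was not among the genes counted and 1 had no ID; of 163 list entries, 45 were unmatched. The members and lists were chosen with earlier results of these data known. The text names each member past an adjusted p under 0.05, the 4 lowest and 4 highest of each class, *gars*, *farsb*, *eprs*, and in each comparison list the genes that passed or otherwise its lowest and highest; some genes of the lists are not reported here by name. Library numbers were not used to pair the samples, because no source says that a number marks a shared clutch. Correlations of deviations were 0.0576 for the libraries numbered 1 and 0.0316 for those numbered 3. With so few libraries these cannot show whether clutches were shared. Alternatives were other scalings, filters, DESeq2 1.42.0, limma 3.58.1 voom with and without quality weights, each library left out, and a fit of libraries 1 and 3 with and without a replicate block.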

Additional observations from a re-analysis of the deposited data

Results flagged for a closer look

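In the *cora* libraries the log2 ratio of *cars* to *cars2* was 2.36, 2.33 and 2.48 in replicates 1 to 3 and 1.56 in replicate 4. The gap below the others took 0.834 of the group's whole range, just past Dixon's 95% limit for 4 samples. The control libraries were at 1.45, 2.01 and 2.14. Of 33 groups of values tested in this way 1 passed, and chance flags about 1 in 20.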

How the results depend on the processing

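The cytosolic median (0.52 to 0.66) and the difference between the class medians (0.38 to 0.66) kept their size within the spread between libraries under all 18 alternatives. The number of calls did not: 426 of all genes and 3 synthetase genes passed in the reported fit, 1789 and 6 with DESeq2, and 3113 and 10 with voom and quality weights. Leaving out single libraries gave 34 to 1207 genes and 0 to 5 synthetase genes, with 6 to 13 synthetase genes at an unadjusted p under 0.05 (11 in the reported fit). The mitochondrial median then ranged from -0.080 to 0.089, *aars* from -0.045 to 0.53, *cars2* from -0.025 to 0.45, *rars2* from -0.12 to 0.32 and *pars2* from -0.24 to 0.21 (log2 fold changes). *pars2* was at -0.0071 with upper quartile scaling and -0.18 with voom and quality weights. *tars* and *yars* passed in 11 of the 18 alternatives and *qars* in 7. The cause of these shifts was not tested.

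With libraries 1 and 3 only, edgeR called 0 genes and 0 synthetase genes with the replicate block and 0 and 0 without it, and 6 synthetase genes were at an unadjusted p under 0.05 with the replicate block and 6 without. The mitochondrial median was 0.19 with the replicate block and 0.16 without, *cars2* was at -0.17 and -0.18, and *wars2* at 0.055 and 0.063. These numbers name the libraries, and no source says that they mark a shared clutch. Precision was lowest for the mitochondrial genes, which had 20 to 538 reads per library and standard errors up to 0.45.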
